A study of Mus musculus with 27 samples.

Results

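The genes described here encode the matrix metalloproteinases (MMPs), the ADAMTS proteinases and the 4 tissue inhibitors of metalloproteinases (TIMPs). Members were taken by symbol alone, as every gene named Mmp, Adamts or Timp with its number among the probe sets that carry 1 gene symbol, and each gene was represented by its probe set of highest mean. There were 44 members of 19938 genes, of which 22 were MMPs, 18 were ADAMTS genes and 4 were TIMPs. Mmp15 and Adamts2 were not analysed here.

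RNA was measured at Day 3 in 27 mouse cultures on Affymetrix Mouse Gene ST arrays, as 9 groups of 3 cultures, in a study of the conversion of fibroblasts to cardiomyocyte-like cells. The 18 cultures of mouse embryonic fibroblasts (MEFs, grown from embryos of mixed background after removal of head and viscera) either carried no factors (0TF) or were transduced with HNGMT, the doxycycline-inducible lentiviruses for Hand2, Nkx2.5, Gata4, Mef2c and Tbx5. Each kind received the DMSO vehicle, 0.5 µM SB431542 (SB, an inhibitor of the type I TGFβ receptor kinase) or 2 ng/mL TGFβ1. The 9 cultures of cardiac fibroblasts (CFs, from adult mouse hearts) all carried HNGMT. They were given the vehicle, SB at 5 µM or TGFβ1 at 2 ng/mL, so that no CF group lacked the factors and the SB dose differed from that in MEFs. Every culture received 2 µg/mL doxycycline, the transactivator that doxycycline acts on and a Troponin T-GCaMP reporter. One label field calls the 0TF cultures empty vector and others call them without transcription factors, and the protocol text of the CF samples describes MEFs.

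MMPs are zinc proteinases that are made as inactive precursors and cut collagens, laminins, elastin and many non-matrix proteins. ADAMTS proteinases are secreted relatives with thrombospondin repeats, and they cut aggrecan and versican or trim procollagens and fibrillin-associated proteins. TIMPs bind the active site of these enzymes, and TGFβ is widely known as a cytokine that changes the balance of proteinase and inhibitor in fibroblasts.

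The markers set the limits of the cell types. In CF HNGMT+DMSO cultures the mean log2 intensity of 7 fibroblast markers was 11.36 to 11.43, and that of 7 endothelial markers was 10.57 to 10.64, so the CF cultures also carried high endothelial signal, whose part in the CF results was not tested. In MEF HNGMT+DMSO the endothelial list lay at 7.08 or below. In MEFs with DMSO, 5 of 6 cardiomyocyte markers rose with HNGMT. Among the mouse probe sets named for the delivered factors, that of Hand2 rose by 2.48 ± 0.06 (SE) on the log2 scale, whereas that of Tbx5 fell by 0.94. The differences were 0.35 for Gata4, -0.57 for Mef2c and 0.01 for Nkx2-5. The paper's qPCR read Hand2 with a mouse assay and Nkx2.5, Gata4, Mef2c and Tbx5 with human assays. It is not given in the sources used here whether these mouse probe sets read the delivered sequences. A difference near or below 0 therefore does not show that a factor was not delivered or expressed. In these bulk cultures fewer cells of a type and less RNA per cell cannot be told apart.

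Of the 22 MMPs, 10 lie side by side on mouse chromosome 9 in the order Mmp13, Mmp12, Mmp1b, Mmp3, Mmp1a, Mmp10, Mmp8, Mmp27, Mmp20 and Mmp7, and these 10 are all the protein-coding genes in that span of RefSeq GRCm38.p6. Promoter windows of 250 bases before to 50 after the start were at hand for 30 of the 44 members. The AP-1 element TGANTCA, searched on both strands, was in the windows of 8 of the 30 members, and all 8 were among the 10 genes of the chromosome 9 block (Mmp13, Mmp12, Mmp1b, Mmp3, Mmp1a, Mmp10, Mmp20 and Mmp7). Among all 32851 windows of the same length, 7.81% held it. The letters TATAAA were in 9 of the 10 genes of the block and in 13.6% of all windows. The Smad box CAGAC was in 17 of the 30 members and in 49.6% of all windows, and the ETS core CAGGAAG was in 8 of 30 members and in 13.3% of all windows. The 120 bases before the start are shown for the genes of the block that changed with TGFβ1, for Mmp1a, which holds the element but passed the test in no comparison, and for Mmp27, which has no AP-1 match. Capitals mark the AP-1 element and TATAAA, and each sequence is written 5′ to 3′ on the strand of the gene. For Mmp12, which has a pair of annotated starts, the window with the match is shown.
Mmp13, chr9:7272394-7272513, plus strand: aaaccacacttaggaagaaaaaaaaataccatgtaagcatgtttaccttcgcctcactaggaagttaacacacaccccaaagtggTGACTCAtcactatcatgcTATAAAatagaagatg
Mmp12, chr9:7347254-7347373, plus strand: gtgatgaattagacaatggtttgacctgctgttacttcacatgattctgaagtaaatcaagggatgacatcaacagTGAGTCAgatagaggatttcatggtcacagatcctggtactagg
Mmp1b, chr9:7388027-7388146, minus strand: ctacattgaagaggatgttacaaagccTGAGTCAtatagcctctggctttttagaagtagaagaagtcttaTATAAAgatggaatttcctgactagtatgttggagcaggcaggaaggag
Mmp3, chr9:7445702-7445821, plus strand: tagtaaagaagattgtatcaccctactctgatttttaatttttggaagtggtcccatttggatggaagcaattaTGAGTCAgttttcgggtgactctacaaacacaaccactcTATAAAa
Mmp1a, chr9:7464021-7464140, plus strand: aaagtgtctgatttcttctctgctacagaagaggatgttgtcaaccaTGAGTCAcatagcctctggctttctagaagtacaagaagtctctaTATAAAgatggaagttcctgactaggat
Mmp10, chr9:7502222-7502341, plus strand: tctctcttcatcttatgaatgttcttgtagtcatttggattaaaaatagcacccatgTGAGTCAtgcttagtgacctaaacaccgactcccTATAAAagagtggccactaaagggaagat
Mmp27, chr9:7571276-7571395, plus strand: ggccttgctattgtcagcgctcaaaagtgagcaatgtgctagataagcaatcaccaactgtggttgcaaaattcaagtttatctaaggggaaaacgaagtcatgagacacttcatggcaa
Counted from the start, the AP-1 element began at position -35 in Mmp13, -46 in Mmp3, -63 in Mmp10, -44 in Mmp12, -73 in Mmp1a and -93 in Mmp1b. A match of letters is a description of the window and not a bound site.

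A member was called where limma's adjusted p (Benjamini-Hochberg, all genes) was under 0.05 and the difference also reached a fold threshold, which was 1.5-fold (0.585 on the log2 scale) in MEFs and in tests between effects, and 0.32 on the log2 scale in CFs. In 0TF MEFs TGFβ1 raised 10 members and lowered 9 of the 44, where 4.21% of all genes rose and 6.19% fell. The rises were mostly MMPs (7 of 22, against 1 that fell) and the falls were mostly ADAMTS genes (6 of 18, against 2 that rose). The median difference over the 44 members was 0.01 on the log2 scale, beside 0.05 over all genes, since the members moved both ways. In HNGMT MEFs TGFβ1 raised 3 members and lowered 5, where 2.23% of all genes rose and 3.54% fell. In CFs with HNGMT it raised 7 members and lowered 1, where 3.11% of all genes rose and 2.20% fell.

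SB changed fewer members. In 0TF MEFs it raised 3 and lowered 3, beside 1.26% and 1.13% of all genes. In HNGMT MEFs it raised 2 members (Mmp3 and Timp4) and lowered 0, beside 0.391% and 0.431% of all genes, and limma gave 9 members lower and 9 higher at an unadjusted p under 0.05. In CFs it raised 0 members and lowered 1 (Mmp16), beside 0.0451% and 0.196% of all genes, and at an unadjusted p under 0.05 limma gave 0 members higher and 6 lower. The shares of all genes at that unadjusted p are not given, here or below, so such counts cannot be set against them. HNGMT itself, against 0TF in MEFs with DMSO, raised 2 members (Mmp13 and Mmp3) and lowered 16, while 4.56% of all genes rose and 4.51% fell. The members that fell held 11 of the 18 ADAMTS genes, 4 of the 22 MMPs and 1 of the 4 TIMPs. The median difference was -0.67 over the 18 ADAMTS genes and -0.18 over all 44 members, beside -0.01 over all genes.

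**Figure D1:**
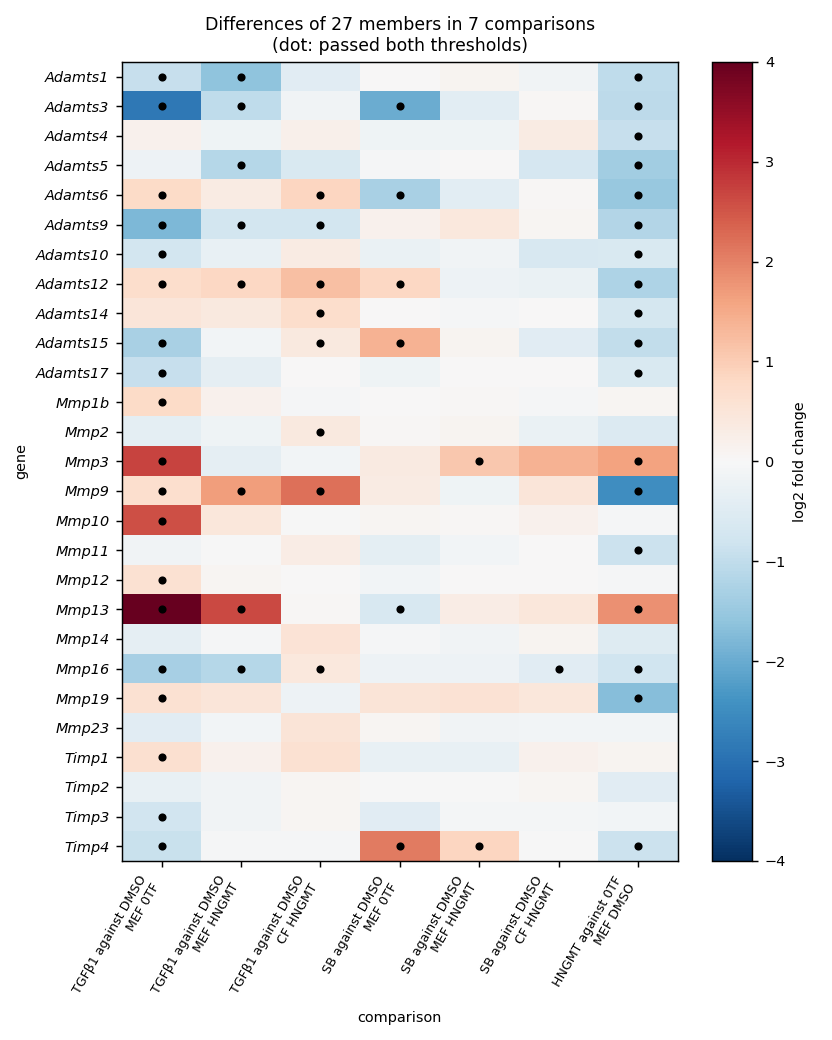
Log2 fold changes (colour) of 27 members, the 26 that passed the thresholds in any of the 10 comparisons and Timp2, in 7 comparisons of 3 against 3 cultures. Black dots mark differences that passed the adjusted p and fold thresholds, the darkest red is Mmp13 in 0TF MEFs with TGFβ1 (3.99) and the last column shows the 16 members that were lower with HNGMT.

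The remaining 18 members were called in none of the 10 comparisons. They were Adamts7, 8, 13, 16, 18, 19 and 20, Mmp1a, 7, 8, 17, 20, 21, 24, 25, 27 and 28, and Timp2, with differences from -0.47 (Adamts7, TGFβ1 in 0TF MEFs) to 0.36 (Adamts16, SB in 0TF MEFs). In MEFs 14 of these 18 had a mean below the 40th percentile of all genes (7.75), where a change in a weakly expressed gene is hard to see on an array. Among the called members, Mmp1b, Mmp10, Mmp12 and Timp4 also lay below that level by their mean over the MEF cultures.

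Mmp13, collagenase-3, which cuts fibrillar collagens, showed the largest rise of any member in the 10 comparisons. In 0TF MEFs its log2 intensity was 7.57, 7.47 and 7.37 with DMSO and 11.48, 11.57 and 11.33 with TGFβ1. In HNGMT MEFs it was 9.08, 9.46 and 9.34 with DMSO and 11.90, 11.95 and 11.96 with TGFβ1. The DMSO cultures with HNGMT thus lay above those without, and the TGFβ1 cultures of both kinds lay above every DMSO culture. The rise with TGFβ1 was 3.99 ± 0.12 (SE, adjusted p = 1.06e-14) without factors and 2.64 ± 0.12 with HNGMT, and the effect was 1.35 ± 0.17 smaller with HNGMT by the interaction (adjusted p = 5.46e-06). HNGMT raised Mmp13 by 1.82 ± 0.12 in DMSO. SB lowered it in 0TF MEFs by 0.64 ± 0.12, from the DMSO values above to 6.55, 7.12 and 6.82 (-0.50 and under the fold threshold without SB replicate 1), whereas in HNGMT MEFs the SB cultures read 9.51, 9.53 and 9.75 (0.30, adjusted p = 0.157). In a fit of all 27 arrays the SB fall in 0TF MEFs (adjusted p = 0.0563) and the SB interaction (0.95, adjusted p = 0.0847) were not called. Both differences were unchanged in that fit, whose spread also takes in the CF SB cultures (SD of 0.72).

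In CFs no such rise with TGFβ1 was measured. Mmp13 read 6.04, 6.26 and 6.29 with DMSO and 6.26, 6.26 and 6.19 with TGFβ1, all below the 40th percentile of the CF arrays (7.27). The difference was 0.04 ± 0.30, and the TGFβ1 effect in CFs minus that in MEFs with HNGMT was -2.60 ± 0.30 (adjusted p = 1.66e-06). The MEF arrays had medians of 7.83 to 7.91 and the CF arrays of 7.36 to 7.43, and for that reason effects and not levels are compared between the cell types.

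Mmp3, stromelysin-1, which cuts proteoglycans and activates other MMP precursors, responded to TGFβ1 in 0TF MEFs and not in the same way with HNGMT. Its values were 8.20, 8.26 and 8.46 with DMSO and 10.83, 11.10 and 11.13 with TGFβ1 in 0TF MEFs. With HNGMT they were 9.75, 10.09 and 9.92 with DMSO and 9.45, 9.43 and 9.76 with TGFβ1. The groups were far apart without factors and overlapped with HNGMT, where the highest TGFβ1 culture lay just above the lowest DMSO culture. The difference was 2.72 ± 0.12 (adjusted p = 1.78e-12) without factors and -0.37 ± 0.12 with HNGMT, which passed the adjusted p (0.0176) and not the fold threshold. The interaction, -3.09 ± 0.16 (adjusted p = 1.79e-10), was the largest of any member. HNGMT raised Mmp3 by 1.62 ± 0.12 in DMSO, and SB raised it further in HNGMT MEFs, to 11.03, 10.87 and 11.08 (1.07 ± 0.12, adjusted p = 7.27e-06), against 8.80, 8.44 and 8.80 in 0TF MEFs (0.37, adjusted p = 0.035, under the fold threshold). The SB effect was 0.70 ± 0.16 larger with HNGMT (adjusted p = 0.0107). Without SB replicate 2 of the 0TF MEFs that difference was 0.5802 and just under the fold threshold. In a fit of all 27 arrays the adjusted p was 0.901 for that difference, 0.608 for SB in HNGMT MEFs and 0.0529 for HNGMT in DMSO, so that none of the 3 was called. The 3 differences themselves were unchanged in that fit. Its spread also takes in the CF SB cultures, whose SD of Mmp3 was 2.48, beside 0.11 to 0.21 in the MEF groups. In HNGMT MEFs Mmp3 was therefore highest with the TGFβ inhibitor, and in 0TF MEFs it was highest with TGFβ1.

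Mmp10, stromelysin-2, lies beside Mmp1a in the block. In 0TF MEFs it read 7.10, 6.91 and 7.05 with DMSO and 9.62, 9.69 and 9.50 with TGFβ1, a rise of 2.59 ± 0.08 (adjusted p = 2.06e-14). In HNGMT MEFs the values were 7.12, 6.76 and 7.05 against 7.47, 7.37 and 7.49, so that the groups did not overlap but the difference (0.47 ± 0.08) was under the fold threshold. The interaction was -2.12 ± 0.11 (adjusted p = 1.66e-10). Mmp1b, one of the rodent counterparts of interstitial collagenase, rose from 5.62, 5.60 and 5.61 to 6.37, 6.42 and 6.37 without factors (0.78 ± 0.03), and its interaction was -0.60 ± 0.05, or -0.5758 without TGFβ1 replicate 1 of the HNGMT MEFs, which is just under the fold threshold. Mmp12, macrophage metalloelastase, rose by 0.61 ± 0.07 in 0TF MEFs, from 6.58, 6.58 and 6.60 to 7.29, 7.01 and 7.27, and fell under the fold threshold without TGFβ1 replicate 1 (0.56) or 3 (0.57). Its difference was 0.07 with HNGMT, and the interaction of -0.54 passed the adjusted p (0.000272) and not the fold threshold. These 5 genes, Mmp13, Mmp12, Mmp1b, Mmp3 and Mmp10, were the members of the block that passed in any comparison, and in CFs with TGFβ1 their differences ran from -0.12 to 0.04 (adjusted p of 0.747 to 0.982). By their mean all 5 lay below the 40th percentile of the CF arrays (7.27), where a change is hard to see on an array.

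**Figure D2:**
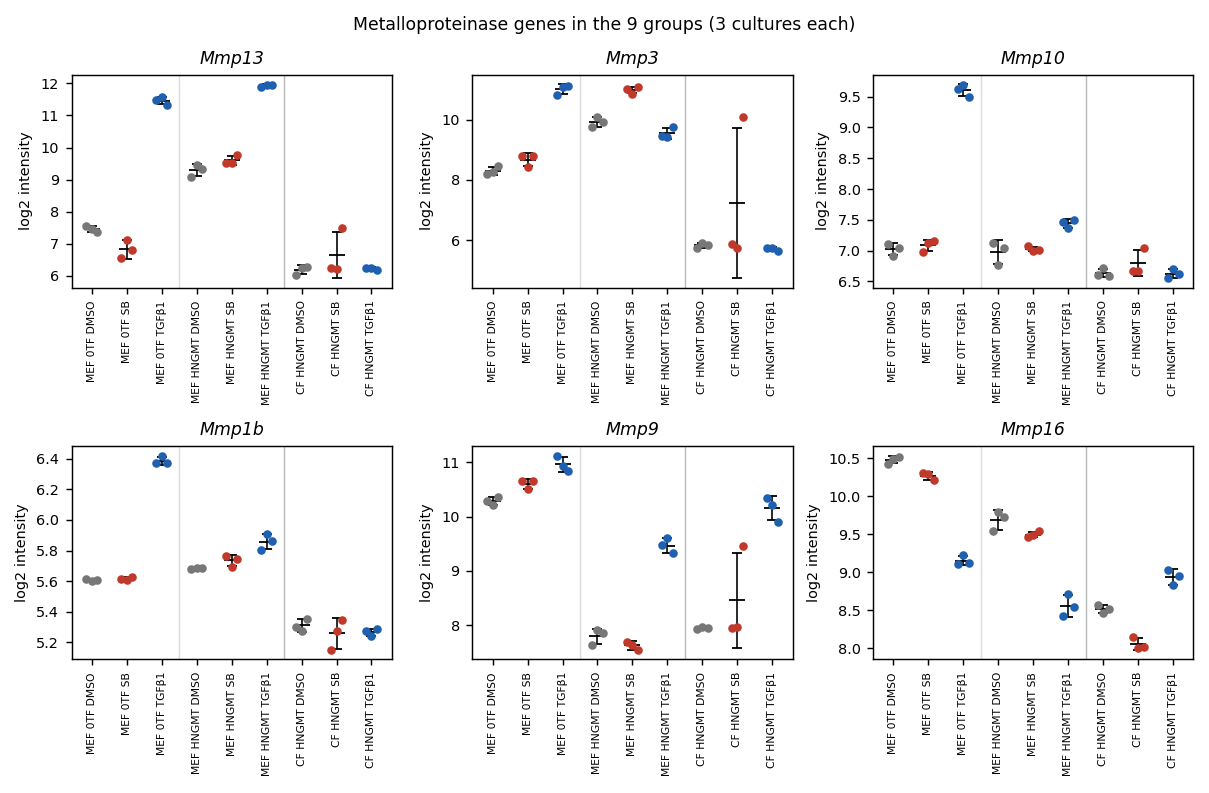
Log2 intensity of 6 MMP genes (y axis, scaled for each gene) in the 9 groups (x axis). Points are cultures, the bar is the mean and the whiskers are 1 SD of 3 cultures, with DMSO in grey, SB in red and TGFβ1 in blue. Mmp3 is at 10.83 to 11.13 with TGFβ1 in 0TF MEFs and at 9.43 to 9.76 with TGFβ1 and HNGMT, and a single CF SB culture stands at 10.09.

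The gelatinase Mmp9, which cuts denatured and basement membrane collagens, rose with TGFβ1 in all 3 settings. It read 10.28, 10.21 and 10.35 with DMSO and 11.11, 10.93 and 10.83 with TGFβ1 in 0TF MEFs, a rise of 0.68 ± 0.08. In HNGMT MEFs it read 7.64, 7.91 and 7.85 against 9.47, 9.60 and 9.33, a rise of 1.67 ± 0.08 (adjusted p = 3.34e-11). In CFs it read 7.94, 7.97 and 7.96 against 10.35, 10.20 and 9.91, a rise of 2.20 ± 0.37 (adjusted p = 0.00992). The TGFβ1 effect was 0.99 ± 0.12 larger with HNGMT than without in MEFs (adjusted p = 3.28e-06), where the starting level was lower. HNGMT lowered Mmp9 by 2.48 ± 0.08 in DMSO, the largest fall of any member with the factors. With TGFβ1, HNGMT MEFs still read below every 0TF culture. The CF effect minus that of HNGMT MEFs was 0.53 ± 0.34 (adjusted p = 0.359), and 0.53 ± 0.13 (adjusted p = 0.00371, under the fold threshold) without CF SB replicate 3.

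Mmp2, the gelatinase that fibroblasts make constitutively, moved little. It rose by 0.40 ± 0.05 with TGFβ1 in CFs, from 12.67, 12.76 and 12.73 to 13.11, 13.12 and 13.14. In MEFs the differences were -0.40 without factors and -0.18 with HNGMT, both under the 1.5-fold threshold of MEFs. The rise in CFs was called at the lower threshold of CFs and was not called at 1.5-fold, so the calls do not separate it in size from the difference in 0TF MEFs. The TGFβ1 effect was 0.59 ± 0.05 higher in CFs than in HNGMT MEFs (adjusted p = 4.09e-08), and it was 0.559 to 0.581 and under the fold threshold without CF DMSO replicate 1, CF TGFβ1 replicate 3, HNGMT MEF DMSO replicate 2 or HNGMT MEF TGFβ1 replicate 1 or 3. Mmp14, the membrane-bound collagenase that activates the Mmp2 precursor, had a TGFβ1 effect 0.60 ± 0.14 higher in CFs than in HNGMT MEFs (adjusted p = 0.00342), or 0.567 to 0.581 without CF DMSO replicate 2, CF TGFβ1 replicate 1, HNGMT MEF DMSO replicate 2 or HNGMT MEF TGFβ1 replicate 1. In CFs it read 11.17, 11.09 and 11.21 with DMSO and 11.75, 11.67 and 11.70 with TGFβ1, a difference of 0.55 (adjusted p = 0.065).

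Mmp16, a membrane-type MMP, moved in opposite directions in the cell types. TGFβ1 lowered it in 0TF MEFs from 10.43, 10.49 and 10.52 to 9.11, 9.22 and 9.12 (by 1.33 ± 0.07) and in HNGMT MEFs from 9.54, 9.80 and 9.72 to 8.42, 8.71 and 8.55 (by 1.13 ± 0.07). In CFs it rose with TGFβ1 from 8.56, 8.46 and 8.52 to 9.03, 8.83 and 8.95 (0.42 ± 0.06, adjusted p = 0.00607), and it fell with SB to values of at most 8.15 (by 0.46 ± 0.06, adjusted p = 0.0349). No culture of either treatment overlapped DMSO, but the SB call was lost when any 1 of the DMSO cultures was left out (adjusted p of 0.124 to 0.216) or SB replicate 1 (0.0595) or 2 (0.116). The difference between the TGFβ1 effects of CFs and HNGMT MEFs was 1.55 ± 0.10 (adjusted p = 1.5e-10).

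Mmp23, a membrane-anchored MMP, had a TGFβ1 effect 0.63 ± 0.14 higher in CFs than in HNGMT MEFs (adjusted p = 0.00356, or 0.574 and under the fold threshold without CF DMSO replicate 1), with differences of 0.53 (adjusted p = 0.0735) in CFs and -0.10 in HNGMT MEFs. Mmp19, an MMP of broad substrate range, rose by 0.61 ± 0.05 with TGFβ1 in 0TF MEFs, from 10.96, 10.88 and 10.97 to 11.48, 11.59 and 11.58, and its differences of 0.50 with TGFβ1 in HNGMT MEFs, 0.51 with SB in 0TF MEFs and 0.57 with SB in HNGMT MEFs passed the adjusted p and not the fold threshold. HNGMT lowered Mmp19 by 1.70 ± 0.05, to 9.13, 9.29 and 9.27 in DMSO. Mmp11, stromelysin-3, which is activated inside the cell by furin, fell with HNGMT by 0.85 ± 0.06 and was called in no other comparison. Over all members, the TGFβ1 effect of CFs exceeded that of HNGMT MEFs past the thresholds in 7 and was below it in 1, beside 2.68% and 1.70% of all genes.

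Among the ADAMTS genes, Adamts3, a procollagen N-proteinase that acts on procollagen II and on the precursor of VEGF-C, was lowered by TGFβ1 and by its inhibitor alike in 0TF MEFs. Its values were 11.71, 11.73 and 11.71 with DMSO, 8.91, 8.86 and 8.79 with TGFβ1 and 9.77, 9.66 and 9.75 with SB. The fall was 2.86 ± 0.05 with TGFβ1 (adjusted p = 2.47e-17) and 1.99 ± 0.05 with SB (adjusted p = 2.04e-14), so neither treated group approached the DMSO cultures. Adamts3 had 16 probe sets, and all 16 were lower with each agent in 0TF MEFs, by -4.22 to -2.06 with TGFβ1 and by -2.64 to -1.70 with SB. With HNGMT the values were 10.60, 10.75 and 10.67 with DMSO, 9.54, 9.69 and 9.75 with TGFβ1 and 10.23, 10.23 and 10.30 with SB. The fall with TGFβ1 was then 1.02 ± 0.05, and the difference with SB was -0.43 and under the fold threshold. The effects were closer to 0 with HNGMT by 1.85 ± 0.07 for TGFβ1 (adjusted p = 4.92e-12) and by 1.56 ± 0.07 for SB (adjusted p = 2.75e-10). HNGMT itself lowered Adamts3 by 1.04 ± 0.05. In CFs the differences were -0.13 with TGFβ1 and 0.03 with SB, and the TGFβ1 effect was 0.89 ± 0.09 higher than in HNGMT MEFs.

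Adamts15, a proteinase of aggrecan and versican, separated the agents in 0TF MEFs. It read 8.70, 8.64 and 8.63 with DMSO, 10.07, 9.99 and 10.06 with SB and 7.33, 7.36 and 7.41 with TGFβ1. SB raised it by 1.38 ± 0.05 (adjusted p = 3.16e-13) and TGFβ1 lowered it by 1.29 ± 0.05 (adjusted p = 1.2e-13). HNGMT lowered it by 0.98 ± 0.05 in DMSO, and with HNGMT the differences were 0.10 with SB and -0.10 with TGFβ1. Means of Adamts15 in HNGMT MEFs were 7.67 with DMSO and 7.57 with TGFβ1. Both lay below the 40th percentile of the MEF arrays (7.75), where a further fall is hard to see. The interactions were -1.29 ± 0.06 for SB (adjusted p = 3.81e-10) and 1.18 ± 0.06 for TGFβ1 (adjusted p = 2.05e-10). In CFs it rose with TGFβ1 from 7.37, 7.29 and 7.37 to 7.73, 7.70 and 7.74 (by 0.38 ± 0.07, adjusted p = 0.0196), and it read 7.02, 6.95 and 6.72 with SB (-0.45, adjusted p = 0.0678). The rise lost its call when any 1 of the DMSO or TGFβ1 cultures of the CFs was left out (adjusted p of 0.0584 to 0.0847).

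Adamts6, a proteinase of the extracellular microfibril environment, also separated the agents in 0TF MEFs, in the opposite sense. It read 9.73, 9.77 and 9.81 with DMSO, 10.67, 10.53 and 10.43 with TGFβ1 (a rise of 0.77 ± 0.08) and 8.66, 8.44 and 8.32 with SB (a fall of 1.29 ± 0.08). HNGMT lowered it by 1.52 ± 0.08, and the SB effect was 0.88 ± 0.11 closer to 0 with HNGMT (adjusted p = 3.87e-05). In CFs it rose with TGFβ1 by 0.87 ± 0.18 (adjusted p = 0.0227), from between 6.12 and 6.27 to between 6.77 and 7.38. Leaving out any 1 of the DMSO cultures of the CFs, or TGFβ1 replicate 1 or 3, brought that adjusted p to between 0.0601 and 0.0809. Its mean lay below the 40th percentile of the CF arrays.

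Adamts12, which cuts cartilage oligomeric matrix protein, was the only ADAMTS gene called higher with TGFβ1 in all 3 settings. The rise was 0.71 ± 0.03 in 0TF MEFs, from 10.91, 10.87 and 10.86 to 11.62, 11.59 and 11.57. It was 0.83 ± 0.03 in HNGMT MEFs, from 9.60, 9.68 and 9.67 to 10.48, 10.49 and 10.46, and 1.21 ± 0.09 in CFs, from 8.80, 8.60 and 8.74 to 10.09, 9.79 and 9.88 (adjusted p = 0.000171). SB raised it too in 0TF MEFs, to 11.70, 11.77 and 11.69 (0.84 ± 0.03), just above the TGFβ1 cultures. With HNGMT the difference with SB was -0.20, and the SB effect was 1.04 ± 0.05 lower (adjusted p = 1.79e-10). Adamts14, another procollagen N-proteinase, rose by 0.71 ± 0.11 with TGFβ1 in CFs, from 8.60, 8.61 and 8.61 to 9.27, 9.33 and 9.34. Its differences of 0.50 and 0.38 in MEFs were under the fold threshold, and HNGMT lowered it by 0.71 ± 0.04. In all 3 settings the TGFβ1 cultures of Adamts14, and those of Adamts6, lay above the DMSO cultures. For Adamts6 in HNGMT MEFs they read 8.45, 8.61 and 8.64 against 8.14, 8.33 and 8.28, which was under the fold threshold.

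**Figure D3:**
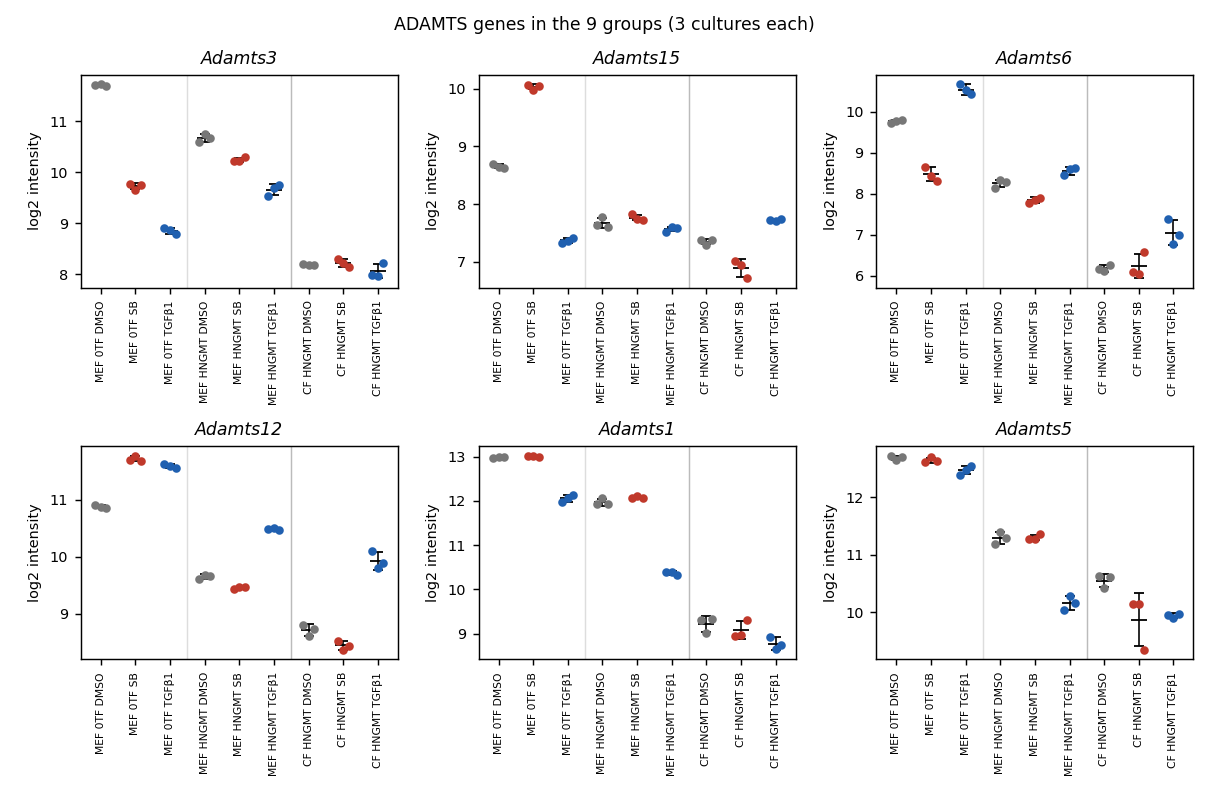
Log2 intensity of 6 ADAMTS genes (y axis, scaled for each gene) in the 9 groups (x axis). Points are cultures, bars are means and whiskers are 1 SD of 3 cultures, with DMSO in grey, SB in red and TGFβ1 in blue. Adamts3 is below DMSO with either agent in 0TF MEFs, and Adamts15 spans 7.33 to 10.07 there and 7.52 to 7.83 with HNGMT.

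The aggrecan and versican proteinases Adamts1, Adamts5 and Adamts9 fell with TGFβ1 in HNGMT MEFs, and each also fell with HNGMT alone. Adamts1 went from 12.97, 13.00 and 12.98 in 0TF MEFs with DMSO to 11.92, 12.06 and 11.93 with HNGMT (a fall of 1.01 ± 0.04), and to 10.40, 10.39 and 10.32 with HNGMT and TGFβ1 (a further 1.60 ± 0.04 down). Without factors TGFβ1 lowered it by 0.93 ± 0.04, and the fall was 0.68 ± 0.06 larger with HNGMT (interaction -0.68, adjusted p = 1.6e-07). Adamts5, a principal aggrecanase in mouse, read 12.71, 12.65 and 12.70 in 0TF MEFs with DMSO, 11.19, 11.40 and 11.29 with HNGMT and 10.05, 10.28 and 10.16 with HNGMT and TGFβ1. Its difference with TGFβ1 was -0.22 without factors, under the fold threshold, and its fall was 1.13 ± 0.06 with HNGMT, with an interaction of -0.92 ± 0.08 (adjusted p = 1.52e-07). The TGFβ1 effect on Adamts1 was 1.16 ± 0.12 higher in CFs than in HNGMT MEFs, with a CF difference of -0.44 (adjusted p = 0.0785).

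Adamts9 behaved differently from Adamts1 and Adamts5 in the interaction. It fell with TGFβ1 from 12.12, 11.97 and 12.00 to 10.23, 10.32 and 10.19 without factors (by 1.79 ± 0.05), and from 10.86, 10.93 and 10.82 to 10.14, 10.13 and 10.18 with HNGMT (by 0.72 ± 0.05), so that its effect was 1.07 ± 0.07 closer to 0 with HNGMT. It was the 1 member called lower with TGFβ1 in CFs (3 were lower in a fit of all 27 arrays, of the 6 arrays alone, or without CF SB replicate 3), from 9.83, 10.01 and 9.91 to 9.16, 9.25 and 9.14 (by 0.73 ± 0.10, adjusted p = 0.00378), and its 6 probe sets were all lower there (-1.10 to -0.66). HNGMT lowered it by 1.16 ± 0.05. Adamts4, an inflammation-inducible aggrecanase, fell with HNGMT by 0.94 ± 0.05 and was called with neither agent.

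Adamts10 and Adamts17, which act on fibrillin microfibrils, fell with TGFβ1 in 0TF MEFs by 0.72 ± 0.04 and 0.91 ± 0.10. HNGMT itself, against 0TF in DMSO, lowered them by 0.62 ± 0.04 and 0.62 ± 0.10. Neither was called with TGFβ1 in HNGMT MEFs. Adamts10 read 10.89, 10.95 and 10.98 with DMSO and 10.22, 10.23 and 10.20 with TGFβ1. Its TGFβ1 effect was 0.61 ± 0.11 higher in CFs than in HNGMT MEFs (adjusted p = 0.000329), or 0.579 and under the fold threshold without CF TGFβ1 replicate 1. Adamts17 had 5 probe sets, all lower with TGFβ1 in 0TF MEFs (-2.90 to -0.55), and its fall with HNGMT was under the fold threshold without 0TF DMSO replicate 2 (-0.54) or HNGMT DMSO replicate 2 (-0.58). Over all members, the TGFβ1 effect was higher with HNGMT than without in 6 and lower in 6, beside 4.68% and 2.77% of all genes. The SB effect was higher with HNGMT in 4 and lower in 3, beside 0.893% and 1.06% of all genes.

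The 4 inhibitors did not move as a group. Timp1, an inhibitor of most secreted MMPs and a common target of growth factors, read 12.87, 12.94 and 12.94 with DMSO and 13.59, 13.53 and 13.54 with TGFβ1 in 0TF MEFs, a rise of 0.64 ± 0.04 (adjusted p = 9.27e-10). With HNGMT the difference was 0.18 (adjusted p = 0.00266, under the fold threshold). In CFs it was 0.59 ± 0.23 (adjusted p = 0.183), although the TGFβ1 cultures (12.50, 12.37 and 12.35) all lay above the DMSO cultures (11.81, 11.83 and 11.79). SB gave -0.29 and -0.28 in 0TF and HNGMT MEFs, under the fold threshold in each.

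Timp3, which is bound to the matrix and also inhibits ADAMTS aggrecanases, went the other way in 0TF MEFs, from 13.40, 13.31 and 13.32 to 12.54, 12.64 and 12.55 with TGFβ1 (a fall of 0.77 ± 0.04, adjusted p = 5.37e-11). With HNGMT the difference was -0.16, and the effects differed by 0.61 ± 0.06 (adjusted p = 3.41e-07), or by 0.5841 and just under the fold threshold without 0TF DMSO replicate 1. Timp2, which takes part in the activation of the Mmp2 precursor by Mmp14, stayed within a narrow range. It read 13.50 to 13.52 in 0TF MEFs with DMSO, 13.19 to 13.22 with TGFβ1 and 13.04 to 13.06 with HNGMT and DMSO. The difference of HNGMT against 0TF in DMSO was -0.46 ± 0.03 (adjusted p = 2.95e-09), which did not reach the fold threshold.

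Timp4, the inhibitor best known from heart and fat, rose with SB in MEFs and not in CFs. It read 7.83, 7.66 and 7.66 with DMSO and 10.01, 9.57 and 9.85 with SB in 0TF MEFs, a rise of 2.09 ± 0.08 (adjusted p = 3.98e-12). With HNGMT it read 6.85, 6.90 and 6.85 against 7.75, 7.70 and 7.70, a rise of 0.85 ± 0.08, and the SB effect was 1.24 ± 0.12 smaller with HNGMT (adjusted p = 1.03e-06). TGFβ1 lowered Timp4 by 0.88 ± 0.08 and HNGMT lowered it by 0.85 ± 0.08, whereas with HNGMT the TGFβ1 difference was -0.05 (interaction 0.83 ± 0.12, adjusted p = 2.3e-05). Means of Timp4 in HNGMT MEFs were 6.87 with DMSO and 6.82 with TGFβ1. Both lay below the 40th percentile of the MEF arrays (7.75), where a further fall is hard to see. In CFs it read 5.50 to 5.70 in all 9 cultures, below the 40th percentile of the CF arrays (7.27), where a change is hard to see. The SB dose also differed, at 5 µM in CFs and 0.5 µM in MEFs. Adipocyte markers moved beside it: all 6 of 6 rose with SB in 0TF MEFs, where their mean level went from between 7.15 and 7.22 to between 10.24 and 10.33. In HNGMT MEFs 1 of 6 (Fabp4) rose with SB, and the mean level went from between 7.11 and 7.24 to between 7.37 and 7.52. In CFs 1 of 6 (Fabp4 again) rose while the Timp4 difference was -0.0037. The part of such cells in the Timp4 rise was not tested.

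**Figure D4:**
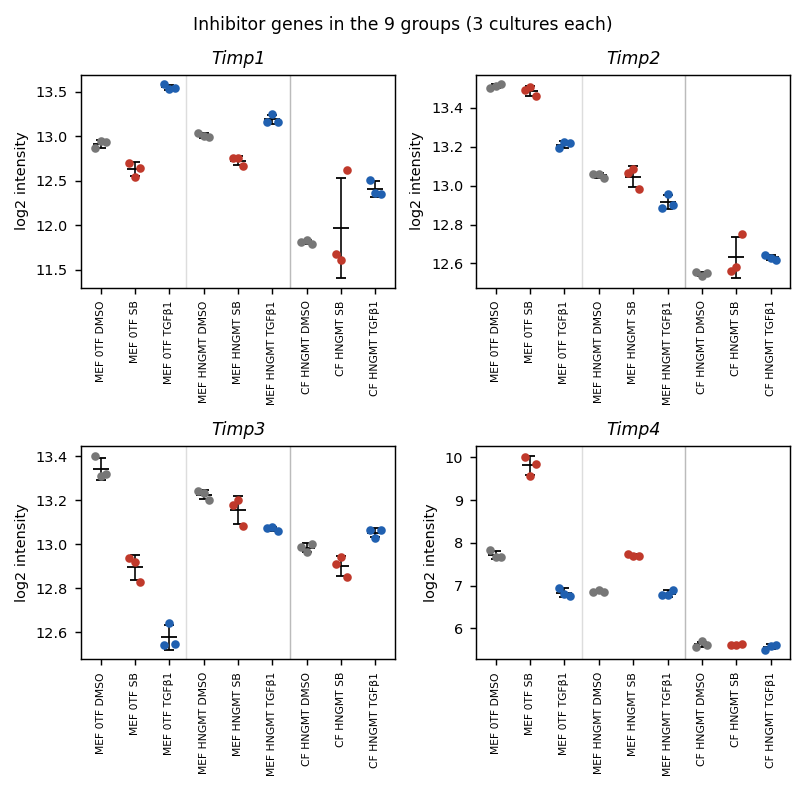
Log2 intensity of the 4 TIMP genes (y axis, scaled for each gene) in the 9 groups (x axis). Points are cultures, bars are means and whiskers are 1 SD of 3 cultures, with DMSO in grey, SB in red and TGFβ1 in blue. Timp4 is at 9.57 to 10.01 with SB in 0TF MEFs, and Timp1 and Timp3 move in opposite directions with TGFβ1 there.

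In CFs the SB results rest on an uneven group. Against the mean of the 3 DMSO cultures, 8 of 44 members were more than 0.5 higher and 3 more than 0.5 lower in CF HNGMT+SB replicate 3, whereas in each of the other replicates 0 were higher and 1 was lower. The shares of all genes beyond 0.5 in these cultures are not given here, so the counts describe the cultures and cannot be read as particular to the members. Replicate 3 read 10.09 for Mmp3 where the others read 5.85 and 5.73, 9.46 for Mmp9 where the others read 7.95 and 7.96, and 7.49 for Mmp13 where the others read 6.26 and 6.23. Mmp19 (9.30 against 8.16 and 8.08) and Timp1 (12.62 against 11.68 and 11.61) were also higher there, and Adamts5 (9.35 against 10.14 and 10.14) was lower. The endothelial list was lower in the same culture (9.36 against 10.76 and 10.75) and the fibroblast list was higher (11.76 against 11.25 and 11.21). The cardiomyocyte list was lower (9.53 against 10.43 and 10.48), as was the smooth muscle list (10.24 against 11.12 and 11.23). The part of these in the proteinase values was not tested.

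**Figure D5:**
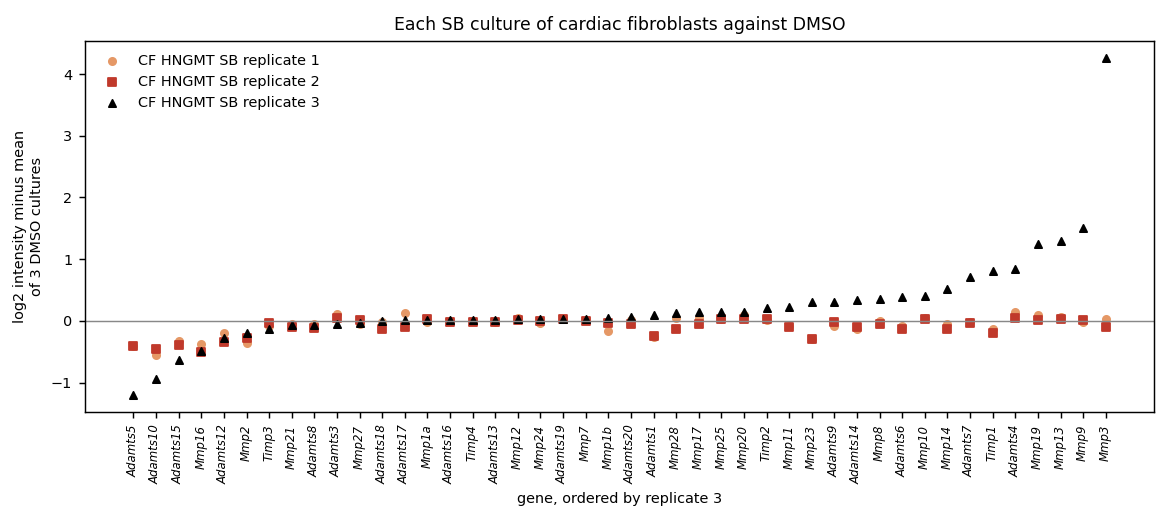
Log2 intensity of each of the 44 members (x axis, ordered by replicate 3) in the 3 CF HNGMT+SB cultures minus the mean of the 3 CF HNGMT+DMSO cultures (y axis). Replicates 1 and 2 stay between -0.55 and 0.14, and replicate 3 runs from -1.20 for Adamts5 to 4.27 for Mmp3.

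Without that culture SB lowered 4 members in CFs in place of 1, beside 1.03% of all genes that fell and 0.858% that rose. The 4 were Adamts10 (-0.50), Adamts5 (-0.41), Adamts15 (-0.36) and Mmp16 (-0.44). Since the culture also sets the spread of the CF fit, the TGFβ1 comparison in CFs went from 8 to 14 members without it, 11 up and 3 down, beside 4.97% of all genes that rose and 5.80% that fell. The 6 added were Mmp14 (0.55), Mmp23 (0.53), Timp1 (0.59), Adamts10 (0.33), Adamts1 (-0.44) and Adamts5 (-0.61). The difference between CFs and HNGMT MEFs went from 8 to 9 members, with Mmp19 (-0.71) added, beside 3.00% of all genes above and 2.16% below.

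Among the genes that act beside these enzymes, the urokinase system cuts plasminogen to plasmin, which in turn activates MMP precursors. In 0TF MEFs, of 10 measured genes of plasminogen activation (of 12 listed), 3 rose with TGFβ1 and the other 7 were not called. The 3 were Plau (urokinase, 1.20), Plat (tissue plasminogen activator, 1.09) and Plaur (the urokinase receptor, 0.78). In HNGMT MEFs 1 of 10 rose (Plaur, 0.92), and in CFs 1 of 10 fell (Plat, -0.84). Of the uncalled genes in CFs, Plau (-1.41, adjusted p = 0.162) and Plaur (1.07, adjusted p = 0.0696) had wide differences, and they were picked after their values were seen. Their SDs in the SB cultures of the CFs, which enter the same fit, were 1.26 and 0.72. With SB, Plaur fell in HNGMT MEFs (-0.64). HNGMT raised Plaur (0.68) and lowered Serpinf1 (-1.11).

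Of 15 ADAM and ADAMTS-like genes, whose ADAMTS-like members lack the catalytic domain, 1 rose and 4 fell with TGFβ1 in 0TF MEFs, with Adamtsl4 at -2.06 and Adamtsl3 at -1.40 the largest falls and Adam19 at 0.90 the rise. With TGFβ1 in HNGMT MEFs 4 fell and the other 11 were not called, and Adamtsl1 (-1.00) and Adam8 (-0.94) fell most. Adamtsl2, a fibrillin-binding protein, rose with TGFβ1 in CFs (1.85 ± 0.11, adjusted p = 6.57e-05), where it was the only one of the 15 called, and fell with SB in CFs (-1.46) and in HNGMT MEFs (-1.13). In 0TF MEFs with SB, Adam12 (0.71) and Adam23 (0.85) rose. With HNGMT 1 rose (Adamtsl2, 1.63) and 4 fell.

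Of 24 activators, other inhibitors and other matrix proteases, 2 rose and 4 fell with TGFβ1 in 0TF MEFs. The serine proteinase Fap rose by 1.94, Htra1 rose by 0.82, and Htra3 (-2.51), the membrane-anchored MMP inhibitor Reck (-1.01), the proprotein convertase Pcsk6 (-1.03) and the heparanase gene Hpse (-1.37) fell. In HNGMT MEFs the only call among the 24 was Hpse (-0.83). In CFs 3 rose with TGFβ1 and 21 were not called, with rises of Htra1 (0.59), Pcsk6 (0.91) and the procollagen C-proteinase Bmp1 (0.43). Hpse (-1.89, adjusted p = 0.0599) and Tll1 (1.17, adjusted p = 0.145), also picked after their values were seen, were not called there, and their SDs in the CF SB cultures were 1.20 and 1.02. HNGMT raised 2 and lowered 4, with Fap at -2.26 and Tll1, a relative of Bmp1, at -1.92. With SB 1 rose (Pcolce2, 0.80) and 1 fell (Tll1, -0.61) in 0TF MEFs, and Htra1 (-0.82) fell in CFs. In HNGMT MEFs limma called 0 of 24 with SB, and 2 were higher and 12 lower with unadjusted p under 0.05.

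The smooth muscle markers moved beside the TGFβ1 results, and all 4 rose with TGFβ1 in 0TF MEFs, where their mean level went from between 10.36 and 10.41 to between 11.80 and 11.99, 2 of 4 rose in HNGMT MEFs (from between 11.31 and 11.42 to between 11.74 and 11.84) and 1 of 4 in CFs. In CFs the list went from between 11.51 and 11.57 to between 12.29 and 12.31, and Myh11 (1.13, adjusted p = 0.179) and Cnn1 (1.06, adjusted p = 0.188) were not called. All 4 rose with HNGMT itself, where the list reached the DMSO level just given. In CFs with TGFβ1 the endothelial list went from between 10.57 and 10.64 to between 10.13 and 10.17. Only 1 of its 7 genes was called (Kdr, -1.22, adjusted p = 0.0227), and the uncalled ones ran from -0.86 (Tek) to 0.03 (Cdh5). The cardiomyocyte list went from between 10.53 and 10.56 to between 10.10 and 10.20, with 1 of 6 called (Ryr2, -0.71). The fibroblast list went from between 11.36 and 11.43 to between 11.50 and 11.63 there, with 1 of 7 higher and 1 lower past the thresholds, and in none of these 4 lists did the groups overlap. Fibroblast markers fell in 3 of 7 with TGFβ1 in 0TF MEFs, in 3 of 7 with TGFβ1 in HNGMT MEFs and in 3 of 7 with HNGMT itself. The list's mean level was 13.30 to 13.33 in 0TF MEFs with DMSO and 12.80 to 12.81 with HNGMT. Leukocyte markers, which matter for Mmp9 and Mmp12, rose in 0 of 8 with TGFβ1 in 0TF MEFs (limma, where 2 were higher and 0 lower with unadjusted p under 0.05) and in 1 of 8 in HNGMT MEFs and in CFs, and their mean level stayed between 7.34 and 7.53 in 0TF MEFs with DMSO and between 7.44 and 7.46 with TGFβ1. Of 5 measured cartilage and bone markers, which matter for Mmp13, 1 fell with TGFβ1 in 0TF MEFs and the other 4 were not called, and 1 rose and 1 fell in HNGMT MEFs. In CFs 2 of the 5 rose with TGFβ1, while Mmp13 differed by 0.04. The part of any of these cell types in the results was not tested.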

How the data were processed

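Total RNA of each of the 27 cultures was measured on its own Affymetrix Mouse Gene ST array. The deposited log2 values were made by the authors, whose methods name MAS5 and PartekGS, and the normalization is not given in the sources used here. They were used as deposited (4.22 to 14.64). Of 35556 probe sets, 21789 carried 1 gene symbol, 1621 several and 12146 none. Symbols come from the platform annotation. For the 999 genes with several probe sets the one of highest mean was used, over 19938 genes.

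Tests used limma 3.58.1 (lmFit, eBayes) under R 4.3.3, in a fit of the 18 MEF arrays (12 residual degrees of freedom), a fit of the 9 CF arrays (6) and, for CFs against MEFs, a fit of all 27 (18). P-values were adjusted over all genes by Benjamini-Hochberg in each of 10 comparisons. Comparisons with the same DMSO cultures share them as controls, and SEs are those of the moderated fit. The labels describe independent biological replicates, and 3 cultures per group limit the precision. Members, gene lists, motifs and tests were chosen with earlier results of these data known. Named genes were the 4 TIMPs and all members called in any comparison, with at most 4 partner genes per list and comparison. Some listed partner and marker genes were not analysed here.

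Pairing required r over 0.1 between the deviations of same-numbered cultures from their group means in every pair. This was met only for TGFβ1 against DMSO in CFs (0.65, 0.55 and 0.12), while SB against DMSO in HNGMT MEFs had 0.46, 0.03 and 0.33. For TGFβ1 against DMSO in CFs the replicate block was fitted as an alternative and gave the same count of members. The SEs and adjusted p-values printed for all comparisons come from fits without that block. Alternatives varied the fold threshold, the arrays in the fit, the block, the variance model, the normalization, the probe set summary, a filter on dim genes below the 40th percentile, and each culture in turn. The fit was tested on simulated data. Promoter windows come from RefSeq GRCm38.p6, and figures were drawn with matplotlib 3.10.9 in Python 3.11.15.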

Additional observations from a re-analysis of the deposited data

Results flagged for a closer look

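These members differed in their response between groups by an interaction term in limma. Differences are effects on the log2 scale, and no cause was tested.

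For TGFβ1, with HNGMT minus without, the differences were -3.09 for Mmp3, -2.12 for Mmp10, -1.35 for Mmp13, -0.92 for Adamts5, -0.68 for Adamts1 and -0.60 for Mmp1b. They were 1.85 for Adamts3, 1.18 for Adamts15, 1.07 for Adamts9, 0.99 for Mmp9, 0.83 for Timp4 and 0.61 for Timp3.

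For SB, with HNGMT minus without, the differences were 1.56 for Adamts3, 0.95 for Mmp13, 0.88 for Adamts6 and 0.70 for Mmp3, and -1.29 for Adamts15, -1.24 for Timp4 and -1.04 for Adamts12. Those of Mmp13 and Mmp3 were not called in a fit of all 27 arrays (adjusted p of 0.0847 and 0.901).

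For TGFβ1, CFs minus MEFs with HNGMT, the differences were 1.55 for Mmp16, 1.16 for Adamts1, 0.89 for Adamts3, 0.63 for Mmp23, 0.61 for Adamts10, 0.60 for Mmp14 and 0.59 for Mmp2, and -2.60 for Mmp13. The SB doses differed between CFs and MEFs, so no such contrast was made for SB.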

How the results depend on the processing

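None of 1386 alternative values of the 89 called differences changed sign, and 47 lost the call, in 18 of the differences. Settings that vary the threshold, variance model, dim-gene filter or block leave the difference itself unchanged, so its sign could not change. The same holds for the fits of all 27 arrays or of the 6 arrays compared. Without a fold threshold no call could be lost. Without a fold threshold the members called were 33 in place of 19 for TGFβ1 in 0TF MEFs, 24 in place of 8 for TGFβ1 in HNGMT MEFs, 19 in place of 6 for SB in 0TF MEFs and 12 in place of 2 for SB in HNGMT MEFs. They were 23 in place of 12 for the TGFβ1 interaction, 12 in place of 7 for the SB interaction and 17 in place of 8 for CFs against MEFs. The shares of all genes called without a fold threshold are not given here. At 1.5-fold, CFs gave 5 in place of 8 for TGFβ1 and 0 in place of 1 for SB. In a fit of all 27 arrays CFs gave 14 for TGFβ1 and 4 for SB, and SB in HNGMT MEFs gave 1. The 6 arrays compared alone gave 14 for TGFβ1 and 0 for SB in CFs. An intensity trend gave 0 for SB in CFs, and without dim genes SB in HNGMT MEFs gave 1, as Timp4 was not tested there. In CFs, leaving out 1 culture gave 6 to 14 members for TGFβ1 and 0 to 4 for SB, with the highest value of each without SB replicate 3. That alternative was chosen after seeing the data for TGFβ1. The call of Mmp16 with SB in CFs was lost without any DMSO culture or without SB replicate 1 or 2 (adjusted p of 0.0595 to 0.216). In the fit of all 27 arrays Mmp3 lost its call with SB in HNGMT MEFs (adjusted p = 0.608), with HNGMT in DMSO (0.0529) and in the SB interaction (0.901), and Mmp13 with SB in 0TF MEFs (0.0563) and in the SB interaction (0.0847). These differences were unchanged there, and the spread of that fit takes in the CF SB cultures (SD of 2.48 for Mmp3 and 0.72 for Mmp13). The replicate block, which no printed SE or adjusted p uses, gave 8 members for TGFβ1 in CFs. It gave 9 for CFs against MEFs, with Mmp19 added, and the same members in the other 8 comparisons. Members below the 40th percentile (18 of 44 in MEFs, 20 of 44 in CFs) were weakly expressed by their mean over a cell type's arrays, where a change measured on an array is limited. Single groups of them lay higher, as Mmp10 read up to 9.69 with TGFβ1 and Timp4 up to 10.01 with SB in 0TF MEFs. The percentile is a chosen cut and not a measured background.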
